A study of Rattus norvegicus with 12 samples.

Results

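The first response of primary rat midbrain astrocytes to PT109B was read as the difference between 3 libraries taken after 1.5 h with 10 µM of the compound and 3 libraries of the untreated control, over every gene of the deposited table. These are 6 of the 12 libraries of the series, which also holds 3 libraries each at 3 h and 6 h. The table lists 9721 genes, of which 9491 had enough counts to be tested and 230 did not. Both groups were wild type (WT) cells from the midbrain of newborn SD rats, grown in DMEM with 10% fetal bovine serum and antibiotics, so the controls also had serum and stood at 0 h of PT109B. No vehicle or time-matched control is among the 12 libraries. Effects of solvent, handling or time therefore cannot be told apart from those of PT109B in any result below. PT109B is a small molecule known here by its code name. The labels give no count of animals per culture and leave unsaid whether each library had a culture of its own, so the p-values below measure spread that may be technical.

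Cells that receive a stimulus through a surface receptor, a calcium rise or cyclic AMP switch on immediate early genes within minutes, because the factors that drive them, among them serum response factor and CREB, are already present and need only be phosphorylated. Many of these genes encode transcription factors, and others encode the phosphatases and Sprouty proteins that shut the MAP kinase pathway down again, secreted ligands that carry the signal to neighbouring cells, and proteins that destroy short-lived messages. Primary astrocyte cultures usually also hold some microglia, oligodendrocyte precursors and fibroblast-like cells.

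At 1.5 h, 315 of 9491 genes (3.32%) differed from control by edgeR's quasi-likelihood test at a Benjamini-Hochberg adjusted p below 0.05. Of these, 185 were higher (1.95%) and 130 lower (1.37%). The higher genes moved farther: 129 of them changed 2-fold or more and 56 changed 4-fold or more, against 18 and 1 of the lower genes. Those that rose farthest were mostly early transcription factors such as Fosb, Nr4a1 and Egr1, with the early effector Arc and the cytokine Lif, and Pdk4, a kinase that holds back glucose oxidation, fell farthest. A fit with the replicate number as a block called 201 genes, 137 higher and 64 lower, and such a fit to the control and 1.5 h libraries alone called 133, 123 higher and 10 lower. The share of calls that were higher was 58.7%, and it was 69.8% with DESeq2's size factors and 43.3% with library sizes alone, so the number of lower genes depended on the scaling more than that of the higher ones.

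The third library of the 1.5 h group differed from replicates 1 and 2, and each result is therefore given with its value. Which of these libraries stands nearer the typical 1.5 h response was not tested. Across all tested genes, which are not replicates, the log2 CPM (counts scaled to library size by TMM, as CPM) of replicates 1 and 2 correlated at 0.9933, while replicate 3 correlated with them at 0.9058 and 0.9052 and with the controls at 0.972 to 0.9787. The controls correlated with each other at 0.9867 to 0.9938. Among 532 genes that were 2-fold or more above the controls in both replicates 1 and 2, replicate 3 lay above all controls in 227, within their range in 191 and below them in 114. Among 887 genes 2-fold or more below the controls in both, replicate 3 lay below all controls in 175, within their range in 345 and above them in 367. Library depth did not set replicate 3 apart, as total counts were 9368967, 11968636 and 9548903 in the 1.5 h libraries and 10364591 to 12498047 in the controls.

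The called genes were those in which replicate 3 moved as well. In replicate 3 all 185 higher genes lay above every control and all 130 lower genes lay below every control. Replicate 3 lay above all controls in 30.0% of all tested genes, below in 33.5% and within their range in 36.5%. Over all tested genes the 3 treated libraries lay above all controls in 1229 (12.9%) and below in 1437 (15.1%). The test favours genes with little spread between replicates, so this agreement is partly built into the call. For groups of called genes below, replicate 3 beyond the controls therefore repeats the call and is no separate result. The size agreed less well. The median log2 ratio to the mean control of the 185 higher genes was 1.28, 1.37 and 1.13 in replicates 1, 2 and 3, and replicate 3 was the lowest of the 3 in 107 of them and the highest in 64. For the 130 lower genes these medians were -0.727, -0.731 and -0.684. Left without replicate 3, the test called 2871 of 9561 genes (30.0%). These included all 315, and left without any other single library the test called 115 to 129.

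**Figure D1:**
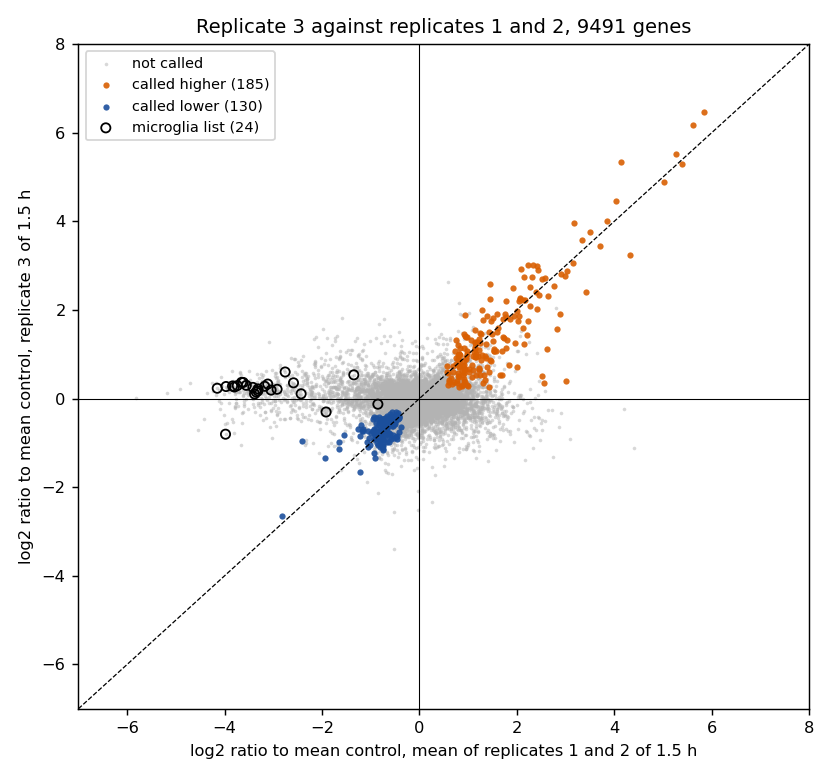
Each point is 1 of the 9491 tested genes, with the mean log2 ratio of replicates 1 and 2 of 1.5 h to the mean control on the x axis and that of replicate 3 on the y axis (0.5 CPM added), orange for the 185 genes called higher, blue for the 130 called lower, and rings for the 24 microglia genes. Most called genes lie near the dashed line of equality, while the microglia genes lie far to the left at a y value near 0.

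Early transcription factors had the highest median change of the gene lists. Of 31 tested genes on a list of early transcription factors, 23 were higher and none lower, against 1.95% of all genes, and the list's median log2 change was 1.98 against -0.0112 for all genes. Replicate 3 lay above all controls in 29 of the 31 (30.0% of all genes), and the list's median log2 ratio was 2.07, 1.92 and 1.74 in replicates 1 to 3. The lists were drawn up with results of these data known, so their counts are descriptions. Some called genes are on several lists, so counts of different lists are not separate results. Each count of called members is to be read beside 1.95% of all genes called higher and 1.37% called lower.

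The Egr proteins are zinc finger factors that bind GC-rich sites and pass growth factor and synaptic signals on to later genes. Egr1 (ENSRNOG00000019422) stood at 26.5, 29.8 and 44.8 CPM in the 3 controls and at 1101, 1124 and 1014 CPM in the 3 treated libraries. The groups were far apart and replicate 3 matched the others, with a log2 change of 5.0 ± 0.41 (SE, n = 3 against 3, edgeR quasi-likelihood adjusted p = 8.72e-05). Egr2 moved from 2.65, 2.29 and 5.54 to 163, 172 and 157 CPM, a log2 change of 5.56 ± 0.47 (edgeR adjusted p = 9.8e-05). Egr3 moved from 2.40, 3.0 and 4.31 to 63.8, 66.9 and 149.9 CPM, a log2 change of 4.85 ± 0.39 (edgeR adjusted p = 8.72e-05), and here replicate 3 was the highest. Egr4 was close to absent in the controls, at 0, 0.214 and 0 CPM, and reached 9.26, 13 and 4.93 CPM, with replicate 3 the lowest of the treated libraries and still above each control.

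AP-1 is a dimer of Fos and Jun proteins, and its members differed in how replicate 3 behaved. Fosb (ENSRNOG00000046667) moved from 0.856, 0.428 and 1.32 to 78.6, 77.4 and 121 CPM, a log2 change of 6.74 ± 0.74 (edgeR adjusted p = 0.000738), with replicate 3 above the others. Fos moved from 13.1, 12 and 14.5 to 146, 145 and 71.9 CPM, a log2 change of 3.20 ± 0.28 (edgeR adjusted p = 0.00011). In replicate 3 Fos was also above every control but well short of the other treated libraries. Fosl2 (1.57 ± 0.27), Jun (1.40 ± 0.26) and Jund (1.16 ± 0.20) rose by less on the log2 scale, and Jun was lowest in replicate 3, at 328 CPM against 445 and 458. Fosl1, at 142 ± 28.2 CPM in control (SD, n = 3) and 374, 385 and 313 CPM in the treated libraries, did not pass the test (edgeR adjusted p = 0.0512). Atf3, a stress-induced bZIP factor that dimerises with them, moved from 21, 19.6 and 26.1 to 209, 196 and 353 CPM (3.51 ± 0.42, edgeR adjusted p = 0.00123).

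Nr4a1, an orphan nuclear receptor induced by calcium and cyclic AMP, moved from 4.71, 3.86 and 6.69 to 268, 279 and 402 CPM, a log2 change of 5.96 ± 0.81 (edgeR adjusted p = 0.00281). It was the only one of the 3 Nr4a genes to pass. Nr4a3 was at 4.79, 4.71 and 4.40 CPM in control and 23, 18.9 and 13.1 CPM at 1.5 h (edgeR adjusted p = 0.0838), and Nr4a2, a factor of midbrain dopaminergic neurons, was at 7.45, 4.71 and 6.42 and 11.4, 10.8 and 12.2 CPM (edgeR adjusted p = 0.393). For both, all 3 treated libraries lay above all controls.

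The KLF factors, zinc finger proteins that bind GC and CACCC boxes, rose in 5 of 15 tested members of the KLF and Sp list (1.95% of all genes were called higher). Klf2 moved from 7.45, 7.93 and 6.34 to 94.1, 107 and 83.4 CPM (3.71 ± 0.52, edgeR adjusted p = 0.0034), and Klf4, a pluripotency and differentiation factor, from 24.5, 20.4 and 18.3 to 99.6, 81.5 and 102 CPM (2.16 ± 0.33, edgeR adjusted p = 0.00466). Klf10 (2.42 ± 0.23), Klf7 (1.21 ± 0.17) and Klf6 (0.98 ± 0.19) rose as well. All but Klf7 are also on the list of early transcription factors. In all 5 replicate 3 lay above every control, as in every called higher gene. Klf5 separated the libraries: it was at 17.1 ± 4.45 CPM in control, 34.2 and 34.9 CPM in replicates 1 and 2, and 16 CPM in replicate 3, and it did not pass.

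Other factors on the list that rose were Ier2, Bhlhe40, Nfil3, Srf, Maff, Snai1, Ier5 and Myc, with log2 changes from 1.09 for Myc to 2.70 for Ier2. Srf, which encodes serum response factor itself, moved from 74.5, 77.3 and 63.8 to 174, 199 and 169 CPM (1.33 ± 0.11, edgeR adjusted p = 8.72e-05). Myc, a driver of growth genes, moved from 64.1, 62.8 and 63.2 to 140.2, 142 and 121 CPM (1.09 ± 0.11, edgeR adjusted p = 0.000309). Hlx, a homeobox factor, went apart between libraries, at 17.6 ± 0.933 CPM in control, 5.43 and 5.25 CPM in replicates 1 and 2 and 23.7 CPM in replicate 3. Of the 23 calls on the list, 16 held whichever 1 of the 6 libraries was left out. Jun, Klf6, Maff and Snai1 lost theirs without each library other than replicate 3 of 1.5 h, with edgeR adjusted p up to 0.0816, 0.0924, 0.162 and 0.0914. Fosl2 (without control 1 or 2, up to 0.0657), Jund (without control 1 or 3, up to 0.067) and Ier5 (without control 2, 0.0536) did so too, and Maff was not called with the replicate block (adjusted p = 0.0911).

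**Figure D2:**
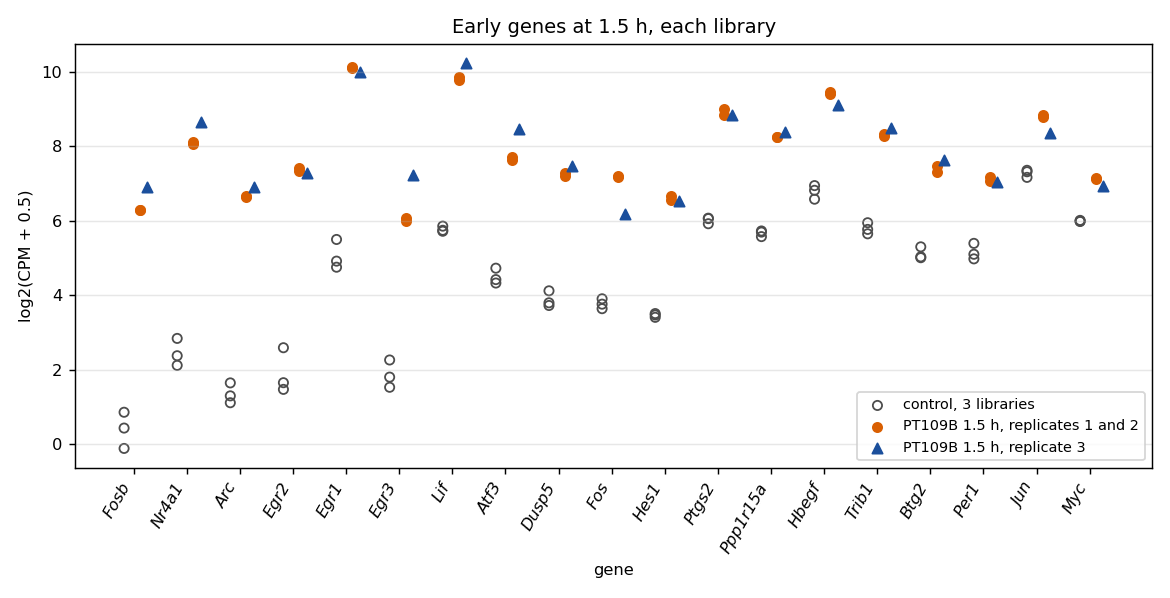
Levels of 19 early genes on a log2(CPM + 0.5) scale in the 3 control libraries (open circles), replicates 1 and 2 of 1.5 h (orange) and replicate 3 of 1.5 h (blue triangles). In each gene all 3 treated libraries lie above all controls, with replicate 3 below the other treated libraries for Fos and above them for Egr3 and Atf3.

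The authors' deposited table assigns a transcription factor family to 34 of the 185 higher genes (18.4%) and 15 of the 130 lower genes (11.5%), against 725 of all 9491 (7.64%). The assignment is approximate: it includes Zfp36l1, which acts in mRNA decay, and leaves out Klf2, Klf7 and Fosl2. The choice of gene lists did not enter this count.

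The promoters of the higher genes were read from RefSeq (GRCr8) for the 2 elements best known at early genes. One is the CArG box, the site of serum response factor, and the other the cyclic AMP response element (CRE), TGACGTCA. A promoter matched by symbol for 135 of the 185 higher genes. The rest were not searched, among them Arc, Egr3, Lif, Klf2, Atf3 and Fos. In the 250 bases before the start, searched on both strands, the full CRE was found in 14 of 135 (10.4%), against 2.55% of 7269 tested genes, 0.943% of 106 lower genes and 1.7% of all 27457 promoters of that length. The CArG box was found in 7 of 135 (5.19%), against 1.25% of tested genes, none of the 106 lower genes and 1.5% of all promoters. The core CRE TGACG, which the full CRE contains, was in 40.7% of the higher genes and 26.5% of tested genes. The AP-1 site TGANTCA was in 4.44% and 4.66%, the E-box CACGTG in 11.9% and 7.84%, and the TATA box TATAAA in 10.4% and 6.58%. In the lower genes these 4 shares were 23.6%, 1.89%, 12.3% and 1.89%, so that the E-box was as frequent there as in the higher genes. A match describes the letters and not the binding of a factor.

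**Figure D3:**
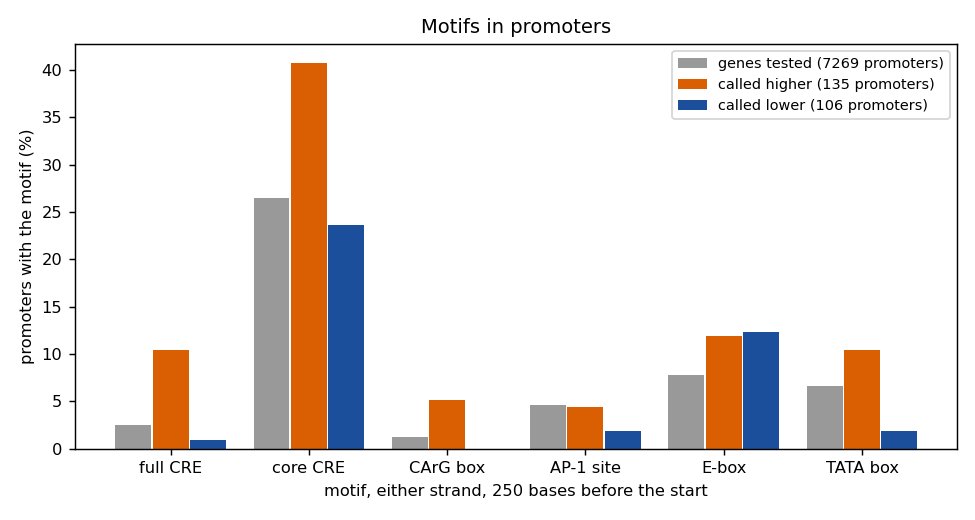
Bars give the percent of promoters that hold each motif on either strand in the 250 bases before the start. They cover only genes with a matched promoter, 7269 tested, 135 called higher and 106 called lower, and start at 0. The full CRE and the CArG box are more frequent in the higher genes, and the AP-1 site is not.

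Egr2, Dusp5 and Srf are shown because they rose in all 3 treated libraries and hold CArG boxes close to the start, and Ier2, Ppp1r15a and Btg2 because they hold the full CRE. The sequences are the 250 bases before the start, 5′ to 3′ on the strand of the gene, from RefSeq with GRCr8 coordinates. They lie at chr20:21054442-21054691 (minus strand), chr1:262543524-262543773 (plus), chr9:21923826-21924075 (plus), chr19:40399123-40399372 (plus), chr1:105139597-105139846 (minus) and chr13:48087691-48087940 (minus). Capitals mark matches to the CArG box, the full CRE, the AP-1 site, the E-box or the TATA box, and the core CRE is left in lower case.
Egr2: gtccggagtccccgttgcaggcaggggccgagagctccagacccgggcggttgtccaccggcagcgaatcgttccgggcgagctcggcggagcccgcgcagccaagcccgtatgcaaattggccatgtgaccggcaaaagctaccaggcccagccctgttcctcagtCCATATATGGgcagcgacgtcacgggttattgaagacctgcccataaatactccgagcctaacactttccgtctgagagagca
Dusp5: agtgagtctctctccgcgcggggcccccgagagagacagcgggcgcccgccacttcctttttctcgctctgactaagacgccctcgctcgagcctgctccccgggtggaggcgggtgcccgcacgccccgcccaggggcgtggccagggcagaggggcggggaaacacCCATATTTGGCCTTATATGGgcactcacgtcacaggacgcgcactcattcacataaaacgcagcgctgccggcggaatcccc
Srf: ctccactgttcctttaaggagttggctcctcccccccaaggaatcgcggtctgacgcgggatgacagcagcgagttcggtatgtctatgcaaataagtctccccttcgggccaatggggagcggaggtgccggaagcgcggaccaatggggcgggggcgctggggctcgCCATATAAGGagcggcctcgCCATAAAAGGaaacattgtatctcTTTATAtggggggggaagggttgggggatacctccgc
Ier2: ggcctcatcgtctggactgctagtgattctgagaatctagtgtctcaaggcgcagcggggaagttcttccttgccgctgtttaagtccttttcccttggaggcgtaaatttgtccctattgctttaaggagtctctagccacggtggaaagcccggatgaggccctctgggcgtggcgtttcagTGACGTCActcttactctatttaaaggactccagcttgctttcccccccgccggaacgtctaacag
Ppp1r15a: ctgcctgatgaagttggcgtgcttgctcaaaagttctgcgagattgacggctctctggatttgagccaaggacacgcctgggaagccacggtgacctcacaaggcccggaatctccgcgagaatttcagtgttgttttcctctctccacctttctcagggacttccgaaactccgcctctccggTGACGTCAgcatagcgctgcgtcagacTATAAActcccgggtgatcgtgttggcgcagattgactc
Btg2: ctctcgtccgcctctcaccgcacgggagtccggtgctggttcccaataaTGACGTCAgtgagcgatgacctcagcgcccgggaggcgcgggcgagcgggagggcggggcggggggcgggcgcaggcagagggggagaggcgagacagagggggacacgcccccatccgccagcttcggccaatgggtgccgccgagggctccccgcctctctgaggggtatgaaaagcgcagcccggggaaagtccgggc

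In Egr2 the CArG box begins 83 bases before the start. Dusp5 holds a pair of CArG boxes side by side, beginning 82 and 72 bases before the start, and Srf holds a pair at 81 and 61. The full CRE begins 66 bases before the start in both Ier2 and Ppp1r15a and 201 bases before it in Btg2. Egr1 also holds a pair of CArG boxes, 105 and 83 bases before its start, and the full CRE was found in Arl4d, Dusp1, Maff, Jund and Plk2 among the other genes named here.

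Most tested genes that switch MAP kinase signalling off rose. Of 16 tested dual specificity phosphatases, Sprouty, Spred and related genes, 11 were higher (1.95% of all genes were) and none lower. The list's median log2 change was 1.31. The medians of the log2 ratios were 1.18, 1.21 and 1.11 in replicates 1 to 3. All 3 treated libraries lay above all controls in 12 members and below them in 2, and the lowest log2 change was -0.788. Dusp5, a nuclear phosphatase of ERK, moved from 13.4, 16.9 and 12.8 to 146, 154 and 176 CPM (3.46 ± 0.36, edgeR adjusted p = 0.000412), and replicate 3 was the highest. Dusp4, another nuclear phosphatase, moved from 11.7, 11.9 and 12.6 to 33.4, 33.9 and 75 CPM (1.97 ± 0.32, edgeR adjusted p = 0.00745). Dusp6, the cytoplasmic ERK phosphatase, moved from 79.6, 84.4 and 111 to 186, 162 and 202 CPM (1.00 ± 0.15, edgeR adjusted p = 0.00358).

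Spry4, which blocks receptor tyrosine kinase signals upstream of ERK, moved from 63.3, 74.6 and 67.1 to 315, 321 and 186 CPM (2.0 ± 0.23, edgeR adjusted p = 0.000937), with replicate 3 above the controls but lower than the others. Spry2 (1.20 ± 0.17) and Errfi1 (2.30 ± 0.23), an inhibitor of the EGF receptor, rose too, as did Dusp1, Dusp2, Dusp7, Dusp8 and Dusp16. All 11 lay above every control in replicate 3, as did every called higher gene. Spred3, Spred2, Rasa2 and Dusp14 did not pass. The log2 changes of Rasa2 and Spred2 were below 0 in all 20 alternative fits (-0.863 to -0.683 and -0.369 to -0.235). Dusp14 was at 32 and 23.4 CPM in replicates 1 and 2 and 13.1 CPM in replicate 3 against 14.1 ± 3.94 CPM in control. With the replicate block Dusp1, Dusp2 and Dusp16 were not called (adjusted p = 0.0673, 0.0977 and 0.0669). These 3 lost the call without each of the 3 controls and without replicate 2 of 1.5 h, Dusp1 and Dusp16 also without replicate 1, and Dusp8 without control 3 (edgeR adjusted p up to 0.158, 0.182, 0.145 and 0.0507).

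Of 18 tested kinases of the cascade, Mapk6, Map2k3 and Mapk8 were higher (16.7%, against 1.95% of all genes), with log2 changes of 0.81 ± 0.13, 0.60 ± 0.13 and 0.58 ± 0.12. Mapk8 was not called with the replicate block (adjusted p = 0.0585), and it and Map2k3 lost the call without each library other than replicate 3 (up to 0.138 and 0.144). None of 18 growth factor receptors passed; the median log2 ratio to control over these receptors was 0.609 and 0.531 in the first libraries and 0.0559 in replicate 3.

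Secreted ligands were among the farthest movers. Lif (ENSRNOG00000007002), a cytokine of the interleukin 6 family that acts through gp130 and STAT3 and drives astrocyte differentiation, stood at 53.2, 57.6 and 52.3 CPM in the controls and 923, 885 and 1201 CPM in the treated libraries. Replicate 3 was the highest, and the log2 change was 4.21 ± 0.24 (edgeR adjusted p = 1.77e-05). Il11, of the same family, moved from 1.88, 3.14 and 2.99 to 12.3, 13.1 and 14.8 CPM (2.32 ± 0.39, edgeR adjusted p = 0.00956). Of 18 tested genes of the family, its receptors, kinases and SOCS inhibitors, the only other to pass was Socs5 (0.79 ± 0.19). The shared receptor Il6st was at 418, 439.5 and 478 CPM in control and 566, 553 and 444 CPM at 1.5 h. Socs5 was not called with the replicate block (adjusted p = 0.0662) and lost the call without each library other than replicate 3 (up to 0.196), and Il11 lost it without control 1 (0.0586).

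Of 26 tested growth factor ligands, 5 were higher (1.95% of all genes were) and none lower, and the median log2 change was 0.79. Hbegf, a ligand of the EGF receptor, moved from 113, 123 and 95.3 to 680.2, 697 and 548 CPM (2.54 ± 0.15, edgeR adjusted p = 1.77e-05), and Ereg, another, from 9.59, 7.78 and 6.69 to 42.5, 32.1 and 56.8 CPM (2.45 ± 0.54, edgeR adjusted p = 0.0396). Pdgfb, a mitogen for glial precursors and mural cells, moved from 2.57, 3.21 and 2.90 to 17.4, 18.1 and 24.7 CPM (2.79 ± 0.23, edgeR adjusted p = 8.72e-05). Gdf15, a stress-induced hormone, reached 348, 330.2 and 545 CPM from 75.9, 65.3 and 58.4 CPM (2.61 ± 0.37, edgeR adjusted p = 0.00337), and Vegfa, the angiogenic factor, 60.2, 54.2 and 60.6 CPM from 26.4, 25.9 and 34 CPM (1.02 ± 0.12, edgeR adjusted p = 0.0012). For all 5, replicate 3 lay above every control, as for every called higher gene. It was clearly the highest treated library for Pdgfb, Gdf15 and Ereg. The rest of the list agreed less: 19 of 26 members lay above all controls in both replicates 1 and 2 (35.6% of all genes did), and 12 of those did so in replicate 3. Ereg was not called with the replicate block (adjusted p = 0.0787) or without any library other than replicate 3 (up to 0.155).

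Early effector genes, which mostly encode cytoskeletal, signalling and secreted proteins, were higher in 18 of 30 tested (1.95% of all genes were) and lower in none. Their median log2 change was 1.48. Arc, which neurons translate at active synapses, moved from 1.97, 2.64 and 1.67 to 98.8, 101 and 119 CPM (5.65 ± 0.36, edgeR adjusted p = 2.39e-05). Ptgs2, the inducible cyclooxygenase of prostaglandin synthesis, moved from 66.3, 60.2 and 66.8 to 509, 461 and 455 CPM (2.88 ± 0.43, edgeR adjusted p = 0.00466). In both, replicate 3 was close to the other treated libraries.

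Trib1 (2.58 ± 0.26), Sik1 (2.46 ± 0.34), a CREB-induced kinase that restrains CREB's coactivators, and Kdm6b (2.11 ± 0.18), which removes the repressive H3K27 methyl mark, rose in all 3 libraries to like degree. Csrnp1, Arl4d, Rnd1, Gem, Phlda1, Pim1, Gadd45b, Gadd45g, Plk2, Plk3 and Nptx2 were among the others to rise, as was Ccn1. Ccn1 and Ccn2, matricellular proteins and targets of SRF and YAP, differed: Ccn1 moved from 103, 112 and 75 to 577, 607 and 210.2 CPM (2.27 ± 0.42, edgeR adjusted p = 0.0154), with replicate 3 above the controls but far below the others. Ccn2 was at 452 and 478 CPM in replicates 1 and 2 and at 107 CPM in replicate 3, against 122, 134 and 109.6 CPM in control, and did not pass. Of the 18 calls, 10 held whichever library was left out. Without each library other than replicate 3, Ccn1, Gadd45g and Plk3 were not called (up to 0.0869, 0.0841 and 0.182), and without some of the controls or of replicates 1 and 2 neither were Gem, Phlda1, Pim1, Plk2 and Nptx2 (up to 0.0639, 0.0569, 0.0965, 0.0707 and 0.123). Plk3 was not called with the replicate block (adjusted p = 0.0706).

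The mRNA decay list, of genes that act on the poly(A) tail or the life of messages, rose in 5 of 25 tested members (1.95% of all genes were called higher). The median log2 change was 0.0269 for the whole list. Zfp36, which binds AU-rich elements of cytokine and early gene messages and recruits the deadenylase, moved from 48.6, 41 and 60.6 to 151, 152 and 191 CPM (1.72 ± 0.19, edgeR adjusted p = 0.000663). Its relative Zfp36l1 moved from 249, 221 and 279.8 to 486, 455 and 684 CPM (1.11 ± 0.21, edgeR adjusted p = 0.0168). Btg2, an antiproliferative partner of the deadenylase, moved from 31.8, 32.3 and 39 to 159, 179 and 198 CPM (2.38 ± 0.18, edgeR adjusted p = 8.23e-05). Cpeb4 (0.86 ± 0.12) and Tob1 (0.82 ± 0.18) rose by less. All 5 were above every control in replicate 3, as was every called higher gene. Tob1 was not called with the replicate block (adjusted p = 0.0787) or without each library other than replicate 3 (up to 0.143), and Zfp36l1 lost the call without each of the 3 controls (up to 0.0943).

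Genes of cyclic AMP and CREB signalling were higher in 6 of 23 tested (1.95% of all genes were) and lower in none. All 6 (Fosb, Nr4a1, Sik1, Per1, Gem and Dusp1) are also on other lists here, so this count is not separate from theirs. They lay above the controls in replicate 3, as did every called higher gene. Akap12, which anchors protein kinase A, was at 1759, 2028 and 1113 CPM in control, 5014 and 5135 CPM in replicates 1 and 2 and 1499.7 CPM in replicate 3, and did not pass the test.

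Of 19 tested clock genes 5 were higher and 1 lower, against 1.95% and 1.37% of all genes. Per1, whose promoter responds to CREB and to glucocorticoid receptor, moved from 33.9, 41.6 and 31.1 to 135, 143 and 131 CPM (1.94 ± 0.42, edgeR adjusted p = 0.0373). Per2, its partner in the negative limb of the clock, moved from 13.4, 14.6 and 16.3 to 45.9, 45.9 and 45.5 CPM (1.63 ± 0.13, edgeR adjusted p = 8.72e-05), with the 3 treated libraries nearly identical. The repressor Ciart moved from 1.97, 2.50 and 2.73 to 10.3, 10.6 and 15.7 CPM (2.34 ± 0.36, edgeR adjusted p = 0.00526), and the repressors Bhlhe40 (2.43 ± 0.30) and Nfil3 (2.01 ± 0.29) rose too. Tef, an activator that shares binding sites with Nfil3, was lower, at 68.6, 71.7 and 76.1 CPM in control and 44.5, 42.1 and 52.6 CPM at 1.5 h (-0.64 ± 0.13, edgeR adjusted p = 0.0255). In all 6, replicate 3 agreed in direction, as in every called gene. Per1 was not called with the replicate block (adjusted p = 0.0512), and Per1 and Tef lost the call without each library other than replicate 3 (up to 0.149 and 0.132).

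Of 19 tested genes known to respond to glucocorticoids, Errfi1, Per1, Dusp1 and Ddit4 were higher and Cebpd was lower (1.95% and 1.37% of all genes were). All the higher ones are also on other lists here. Ddit4, an inhibitor of mTORC1, moved from 55.7, 51.1 and 66.2 to 112, 109.6 and 155 CPM (1.12 ± 0.16, edgeR adjusted p = 0.00351). Fkbp5, a sensitive target of the receptor, was at 179, 183 and 160.4 CPM in control and 135, 141 and 144 CPM at 1.5 h, with all treated libraries lower than the controls, and did not pass.

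Hes1, the Notch-induced repressor of proneural genes, moved from 10.6, 10.1 and 10.9 to 101, 94.3 and 91.3 CPM, a log2 change of 3.18 ± 0.30 (edgeR adjusted p = 0.000248), and replicate 3 was close to the others. Of 20 tested Notch genes the others to pass were Nrarp (1.00 ± 0.21) and Dll4, a ligand at 0, 0.0714 and 0.176 CPM in control and 0.906, 0.941 and 1.81 CPM at 1.5 h. The receptor genes Notch1 and Notch2 did not pass. With the replicate block neither Nrarp nor Dll4 was called (adjusted p = 0.0635 and 0.0639), and both lost the call without control 1, control 2 or replicate 2 of 1.5 h (up to 0.138 and 0.13).

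The Id genes, which encode inhibitors of basic helix-loop-helix factors and are direct BMP targets, did not pass at 1.5 h, and none of 22 tested BMP and Id genes did. Id1 was at 161, 160.3 and 156 CPM in control and 252, 242 and 207 CPM at 1.5 h, Id2 at 143, 121 and 145 and 97.7, 87.4 and 98.7 CPM, and Id3 at 506, 477 and 443 and 504, 503 and 432 CPM. For Id1 all treated libraries were higher than all controls and for Id2 all were lower, replicate 3 included (edgeR adjusted p = 0.111 and 0.137).

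Stress genes rose in part. On the p53 target list 6 of 21 were higher (1.95% of all genes were) and none lower. Replicate 3 lay below all controls in none of the 21, against 33.5% of all genes. Bbc3 and Pmaip1, which encode the death-promoting BH3 proteins Puma and Noxa, moved from 15.9, 15.5 and 15.9 to 59.6, 57.1 and 56 CPM (1.87 ± 0.22, edgeR adjusted p = 0.000905) and from 13.2, 14.1 and 15.2 to 35.6, 34 and 26.5 CPM (1.18 ± 0.15, edgeR adjusted p = 0.00135). The other 4 were Trib1, Btg2, Plk2 and Plk3, which are early genes as well. Cdkn1a, the p53-induced cell cycle inhibitor, was at 271 ± 2.85 CPM in control and 399, 394 and 459 CPM at 1.5 h, and Mdm2 at 173 ± 2.79 and 365, 346 and 402 CPM, and neither passed the test.

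Of 28 tested genes of the integrated stress response, Atf3, Chac1, Ppp1r15a and Ddit4 were higher (1.95% of all genes were). Ppp1r15a, which encodes the phosphatase subunit GADD34 that restores translation, moved from 51.4, 52.6 and 47.3 to 304, 302 and 334 CPM (2.64 ± 0.28, edgeR adjusted p = 0.000587). Chac1, a glutathione-degrading enzyme, moved from 3.0, 3.93 and 3.87 to 32.6, 25 and 11.7 CPM (2.68 ± 0.63, edgeR adjusted p = 0.0488), lowest in replicate 3. The amino acid genes of this response did not agree between libraries: Slc7a5, a transporter of large neutral amino acids, was at 347 ± 15.9 CPM in control, 728 and 694 CPM in replicates 1 and 2 and 389.5 CPM in replicate 3. Over the list, 22 members lay above all controls in replicates 1 and 2 (35.6% of all genes did), and 8 of these did in replicate 3. Chac1 lost the call without each library other than replicate 3 (up to 0.191).

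Among 18 heat shock genes Hspa1a, Dnajb5 and Hspb1 were higher (1.95% of all genes were). Hspa1a, the inducible Hsp70, was at 25.3, 27.6 and 29.6 CPM in control and 227, 213 and 189.6 CPM at 1.5 h (2.93 ± 0.70, edgeR adjusted p = 0.0498). It has a near-identical neighbouring copy, so how the authors' counting split their reads is uncertain. All 3 lost the call without each library other than replicate 3 (up to 0.191, 0.148 and 0.166), and Hspa1a and Hspb1 with the replicate block (adjusted p = 0.0922 and 0.0783). None of 14 genes of the endoplasmic reticulum stress list passed.

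Several genes that rose lie outside these groups. Xirp1, an actin-binding protein of muscle and an SRF target, moved from 1.80, 4.36 and 4.31 to 59.2, 54.7 and 63.7 CPM (4.08 ± 0.30, edgeR adjusted p = 7.22e-05). RGD1564664, known by that symbol only, moved from 10.5, 10.4 and 8.18 to 120.0, 109.8 and 138 CPM (3.65 ± 0.30, edgeR adjusted p = 8.72e-05). Arrdc3, an arrestin-related adaptor, moved from 88.2, 83.8 and 100.4 to 469.6, 434 and 609 CPM (2.47 ± 0.20, edgeR adjusted p = 8.72e-05). In all 3 genes replicate 3 was the highest library.

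Kcnk3, a background potassium channel, moved from 2.91, 1.93 and 0.88 to 16.6, 17.9 and 8.56 CPM (2.90 ± 0.37, edgeR adjusted p = 0.00166), and replicate 3 was above the controls but lower than the others. Cyp24a1, which inactivates vitamin D, was at 0.0856, 0.214 and 0.352 CPM in control and 2.41, 3.37 and 5.34 CPM at 1.5 h (4.03 ± 0.83, edgeR adjusted p = 0.0266), and it lost the call without each library other than replicate 3 (up to 0.125). Tiparp, a target of the aryl hydrocarbon receptor, moved from 159.6, 148 and 121 to 489.8, 446 and 499 CPM (1.75 ± 0.29, edgeR adjusted p = 0.008, 0.053 without control 3). Cyp1a1 and Cyp1b1, other targets of that receptor, did not pass, at 144, 159 and 119.6 CPM in control and 87.8, 85.2 and 121 CPM at 1.5 h for Cyp1a1.

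Rara, the retinoic acid receptor alpha, moved from 40.8, 42.9 and 51.1 to 98, 96.1 and 87.6 CPM (1.06 ± 0.12, edgeR adjusted p = 0.000937). Rgs16, which ends G protein signals, moved from 101, 99.5 and 88.1 to 324, 338 and 442 CPM (1.94 ± 0.24, edgeR adjusted p = 0.00139), highest in replicate 3. Replicate 3 lay above all controls in 18 of 24 tested sterol and fatty acid genes (30.0% of all genes), and replicates 1 and 2 in 11 (35.6% of all genes). Of the 24, 2 were called higher and none lower.

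The lower genes changed less. Pdk4 (ENSRNOG00000009565) stood at 20.4, 17.6 and 21.1 CPM in the controls and 2.62, 2.12 and 2.72 CPM in the treated libraries, a log2 change of -2.98 ± 0.24 (edgeR adjusted p = 8.72e-05). It was the only gene to fall 4-fold or more, and replicate 3 matched the others. Angptl4, another gene of fat use, was at 293, 298 and 327 CPM in control and 164, 151 and 230.4 CPM at 1.5 h, lower in all 3 libraries, and did not pass (edgeR adjusted p = 0.337). Of 25 tested FOXO and fuel use genes Pdk4 was the only one lower, and Arrdc3 and Cdkn1c were higher. Cdkn1c, a cell cycle inhibitor, was at 4.45, 4.93 and 2.90 CPM in control and 26.5, 26.3 and 5.34 CPM at 1.5 h, so that its log2 change of 2.24 ± 0.50 (edgeR adjusted p = 0.0381) came mostly from replicates 1 and 2. It was not called with the replicate block (adjusted p = 0.0706) or without each library other than replicate 3 (up to 0.154).

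Cebpd, a bZIP factor of inflammation and fat cell differentiation that is usually induced by cytokines, moved from 247, 242 and 276 to 81, 81.2 and 128 CPM (-1.40 ± 0.22, edgeR adjusted p = 0.00644). Replicate 3 was lower than the controls but less so than the others. Tirap, an adaptor of toll-like receptors, moved from 20.5, 15.8 and 18.9 to 5.13, 5.88 and 8.15 CPM (-1.53 ± 0.26, edgeR adjusted p = 0.0105), and Ptger1, a prostaglandin E2 receptor, from 23.7, 23.3 and 27 to 9.56, 11.1 and 13.6 CPM (-1.11 ± 0.22, edgeR adjusted p = 0.0239). Tent5c, a poly(A) polymerase, moved from 16.5, 25.7 and 24.9 to 3.32, 4.39 and 11.3 CPM (-1.82 ± 0.40, edgeR adjusted p = 0.0374), with replicate 3 between the groups. Mfsd12, a lysosomal transporter, and Tmem51 had the same order, at 10.6, 9.49 and 15.3 and 2.11, 2.74 and 4.33 CPM at 1.5 h against 39.8 ± 3.78 and 8.04 ± 0.563 CPM in control. All but Cebpd lost the call without at least 3 of the other libraries (edgeR adjusted p up to 0.063 for Tirap, 0.123 for Ptger1, 0.156 for Tent5c, 0.183 for Mfsd12 and 0.161 for Tmem51). Ptger1, Mfsd12 and Tmem51 were not called with the replicate block (adjusted p = 0.0623, 0.056 and 0.0513).

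Other lower genes were about as low in replicate 3 as in the other treated libraries. Fam13b, a GTPase-activating protein, moved from 73.4, 64.7 and 64 to 30.7, 33.8 and 31.3 CPM (-1.08 ± 0.10, edgeR adjusted p = 0.000201). Ppp1r10, a regulator of protein phosphatase 1 that acts in transcription termination, moved from 137, 152 and 147 to 71.6, 65.6 and 73.7 CPM (-1.05 ± 0.12, edgeR adjusted p = 0.000937). Pwwp2a, a reader of the histone variant H2A.Z, moved from 18.9, 17.4 and 18.4 to 7.24, 7.76 and 5.44 CPM (-1.42 ± 0.24, edgeR adjusted p = 0.0089). Klhl12 (-1.05 ± 0.18) and Klhl18 (-1.05 ± 0.16), adaptors of cullin 3 ubiquitin ligases, fell as well. Axin1, a scaffold that limits Wnt signalling, moved from 80.5, 87.4 and 84.8 to 51.6, 52 and 47.6 CPM (-0.74 ± 0.11, edgeR adjusted p = 0.00368), the only one of 23 tested Wnt genes to pass. Klhl12 lost the call without control 1, control 2 or replicate 1 of 1.5 h (up to 0.0569).

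Sox21, a factor that opposes Sox2 in progenitors, moved from 57.4, 59.1 and 76.3 to 35.9, 35 and 30.9 CPM (-0.92 ± 0.18, edgeR adjusted p = 0.0217). It was the only one of 15 tested progenitor genes to pass, was not called with the replicate block (adjusted p = 0.0516) and lost the call without each library other than replicate 3 (up to 0.105). The remaining genes among the 20 that fell farthest were Irs3, Cables1, Uhrf1bp1, Tmem104, Kbtbd8, AC126572.1, RGD1561149 and AABR07053741.1, with log2 changes from -1.16 for Irs3 to -0.99 for Kbtbd8. Each of these 8 lost the call without at least 3 of the libraries other than replicate 3 of 1.5 h (edgeR adjusted p up to 0.204 for Kbtbd8), and Irs3, Cables1, Kbtbd8 and AABR07053741.1 were not called with the replicate block (adjusted p = 0.0911, 0.0639, 0.0987 and 0.0827). Of all 130 lower genes 19 kept the call whichever library was left out, against 81 of the 185 higher genes. With the replicate block 62 of the 130 and 135 of the 185 were still called, and with the block in the control and 1.5 h libraries alone 9 of the 130 and 104 of the 185.

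**Figure D4:**
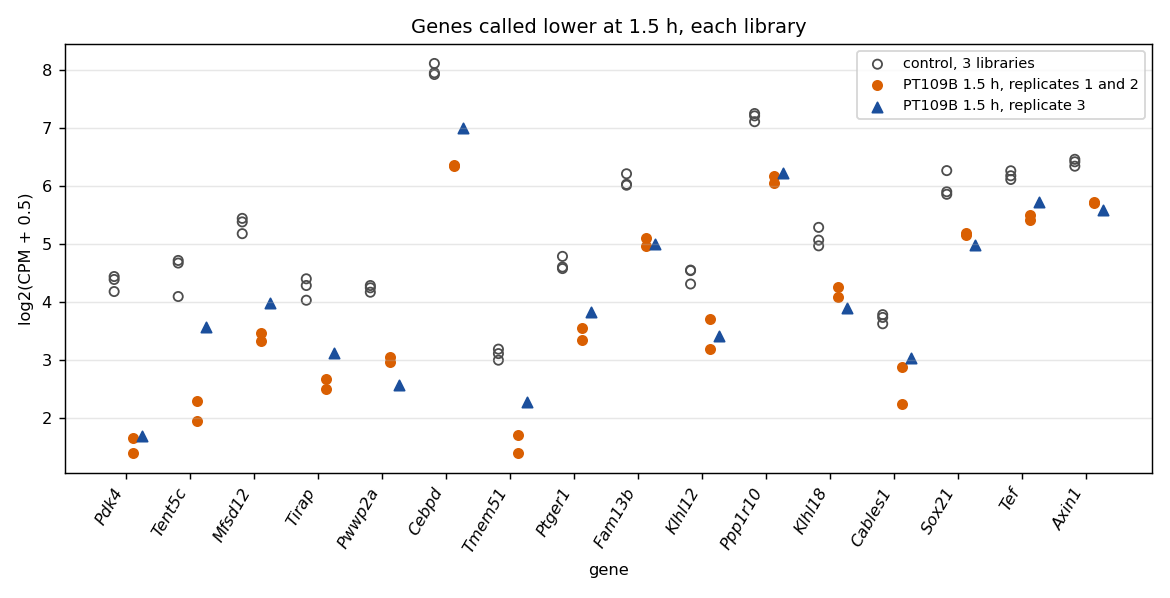
Levels of 16 genes called lower on a log2(CPM + 0.5) scale in the 3 control libraries (open circles), replicates 1 and 2 of 1.5 h (orange) and replicate 3 of 1.5 h (blue triangles). All treated libraries lie below all controls in each gene, with replicate 3 between the groups for Tent5c and Cebpd and below the other treated libraries for Pwwp2a and Klhl18.

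Microglia genes formed the clearest group in which replicate 3 did not follow the others. None of 24 tested microglia genes passed the test, with a median log2 change of -1.13. Csf1r, the receptor on which microglia depend, was at 319, 327 and 409.8 CPM in the controls and 31.8, 34.8 and 378 CPM in treated replicates 1 to 3. Aif1, which encodes the microglial protein Iba1, was at 89.5, 74.9 and 95.4 and 9.26, 9.88 and 109 CPM, Cx3cr1, the fractalkine receptor, at 14.6, 18.4 and 25.3 and 3.82, 2.67 and 20.9 CPM, and C1qa, of complement, at 191, 217 and 232 and 12.4, 14 and 257 CPM. All 24 were below every control in both replicates 1 and 2 (36.6% of all genes were), and 16 were above every control in replicate 3 (30.0% of all genes). Summed over the list the level was 3201 to 3922 CPM in the controls, 326.8 and 320.9 CPM in replicates 1 and 2 and 4058 CPM in replicate 3. No gene of the 24 was at 0 in any of the 6 libraries. Without replicate 3, 23 of the 24 were called lower, against 16.7% of genes tested that way. In such bulk libraries fewer cells of a type and less RNA per cell cannot be told apart.

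The 10 genes with the widest gap by which replicate 3 exceeded the others were of the same kind. They were Cd5l, Cd207, Siglec1, S100a8, Lyz2, Lpl, RGD1565355, Ccl6, Trem2 and Mrc1, most of them known from macrophages, microglia or other myeloid cells. Lyz2, lysozyme, was at 3600.2, 3264 and 4449 CPM in control and 204, 212 and 4790.3 CPM at 1.5 h. Mrc1, the macrophage mannose receptor, was at 743, 849 and 1060.4 and 51.2, 49.9 and 1015 CPM, and Lpl, lipoprotein lipase, at 372, 369 and 365 and 17.8, 17 and 403 CPM. In each, replicate 3 stood at the level of the controls. At 3 h and 6 h Lyz2 was at 3791 ± 442 and 3304 ± 639 CPM (SD, n = 3), nearer replicate 3. Mrc1 (464 ± 232 and 340 ± 170 CPM) and Lpl (189 ± 57.1 and 160 ± 49.6 CPM) then lay between replicates 1 and 2 and replicate 3.

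Immune signalling lists followed the same split. None of 24 NF-kB pathway genes and none of 22 chemokines and cytokines passed. Replicates 1 and 2 lay below all controls in 19 of the 24 NF-kB genes (36.6% of all genes), and replicate 3 lay above all controls in 18 (30.0% of all genes). Nfkbia, the inhibitor that NF-kB itself induces, was at 352, 306 and 349 CPM in control and 211, 192 and 373 CPM at 1.5 h. For chemokines and cytokines the median log2 ratio was -0.713, -0.682 and 0.421 in replicates 1 to 3. Ccl2, which attracts monocytes, was at 1326, 1225 and 1319 CPM in control and 1449.6, 1282 and 2196 CPM at 1.5 h. For 21 interferon response genes the medians were -1.49, -1.29 and 0.962, and Irf1, which rose in all 3 libraries from 62.6, 63.3 and 59.8 to 107, 112 and 125 CPM (0.89 ± 0.16, edgeR adjusted p = 0.0151), was the only one to pass. Irf1 lost the call without each control or replicate 2 of 1.5 h (up to 0.0784). The microglia genes moved in the same libraries, and their part in these lists was not tested.

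Genes of fibroblasts, matrix and contractile cells were higher in replicates 1 and 2 and near control in replicate 3. None of 15 tested fibroblast and meningeal genes passed, and their sum was 2033 to 2475 CPM in the controls, 6488 and 6760 CPM in replicates 1 and 2 and 2210 CPM in replicate 3, with no member at 0. Col1a1, a chain of type I collagen, was at 496, 645 and 469.6 CPM in control and 2610.0, 2738 and 465 CPM at 1.5 h. Of 29 tested matrix and integrin genes, 27 lay above all controls in both replicates 1 and 2 (35.6% of all genes did) and 6 of these did so in replicate 3 (12.9% of all genes lay above in all 3). Fn1, fibronectin, was at 3363, 4428 and 3218 and 7140.2, 7329 and 3292 CPM. Itga5, the fibronectin receptor chain, was the one that passed, at 287, 326 and 318 CPM in control and 554, 606 and 516 CPM at 1.5 h (0.85 ± 0.19, edgeR adjusted p = 0.0421), though not with the replicate block (adjusted p = 0.0865) or without each library other than replicate 3 (up to 0.174).

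Of 27 tested targets of YAP, MRTF and SRF, 25 lay above all controls in replicates 1 and 2 (35.6% of all genes did), and 4 of these did so in replicate 3. These 4, Ccn1, Srf, Itga5 and Zyx, were the ones called, and without replicate 3 the number called higher was 19, against 13.4% of genes tested that way. Zyx, of focal adhesions, moved from 196, 201 and 164 to 343, 350.5 and 269 CPM (0.78 ± 0.15, edgeR adjusted p = 0.0221) and lost the call without each library other than replicate 3 (up to 0.114). Flna, filamin A, was at 3972, 4486 and 2775 CPM in control and 6823, 7164 and 2852 CPM at 1.5 h, so that replicate 3 lay within the control range. The fibroblast genes moved in the same libraries, and their part in these lists, and in those of growth factor ligands, the integrated stress response and oligodendrocytes, was not tested.

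Oligodendrocyte lineage genes had a median log2 ratio of 1.62, 1.60 and -0.145 in replicates 1 to 3, and none of 16 passed. Mbp, myelin basic protein, was at 22.5, 23.1 and 18.8 CPM in control and 58.4, 60.5 and 23.8 CPM at 1.5 h. Sox10, the lineage's defining factor, was at 6.42, 7.57 and 1.85 and 37.5, 38.8 and 1.81 CPM, so control 3 was also lower than the other controls. The same order was seen in other genes in which replicates 1 and 2 stood farthest above replicate 3: H19, an imprinted RNA, was at 8.82, 5.93 and 3.96 and 144, 139.8 and 2.62 CPM, and Tnr, a matrix protein of oligodendrocytes and some neurons, at 13.4, 11.6 and 8.89 and 64.2, 69.2 and 6.75 CPM. Opcml, Sema3d, Vxn, Gpd1, Dcx, Cux2 and Cnn1 completed the 10. At 3 h and 6 h H19 was at 1.72 ± 1.62 and 1.19 ± 0.466 CPM (SD, n = 3), nearer replicate 3. So were Sox10, at 0.754 ± 0.353 and 3.01 ± 1.37 CPM, and Tnr, at 3.79 ± 1.35 and 4.43 ± 2.55 CPM. Of 10 tested vascular genes Ets1 passed, higher at 0.53 ± 0.12, and the median log2 ratio of the list was -1.94, -2.26 and 0.152. Its member Tie1, an endothelial receptor named after its values were seen, was listed at 0, 0 and 1.01 CPM at 1.5 h against 2.74, 1.43 and 0.792 CPM in control. Ets1 lost the call without each library other than replicate 3 (up to 0.166).

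**Figure D5:**
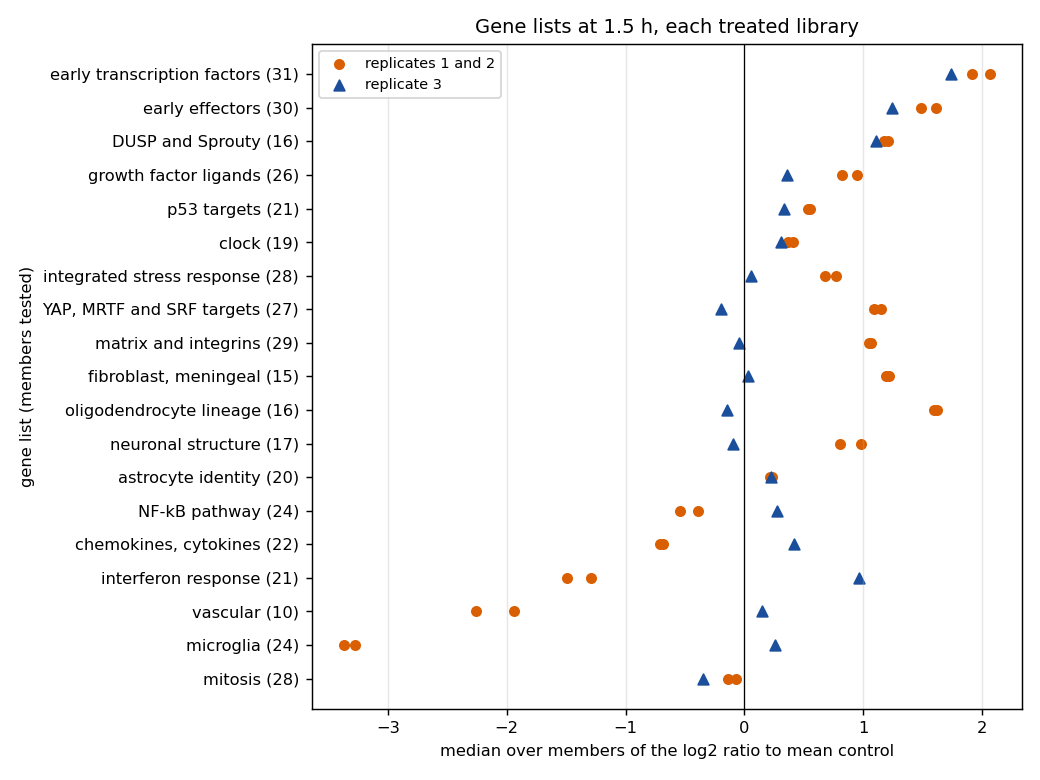
Each row is a gene list, with the number of members tested in parentheses, and the x axis gives the median over members of the log2 ratio to the mean control in replicates 1 and 2 of 1.5 h (orange) and in replicate 3 (blue triangles). The medians of the 3 libraries are alike for early transcription factors, DUSP and Sprouty genes, clock and astrocyte genes, though single astrocyte genes differ. Replicate 3 stands near or beyond 0 for the microglia, fibroblast, matrix and oligodendrocyte lists.

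Markers of the labelled cell type were present in all 6 libraries. Gfap, the astrocyte intermediate filament, was at 1932, 1900.5 and 2708 CPM in control and 3295, 3236 and 2906 CPM at 1.5 h, the water channel Aqp4 at 1319.9, 1179 and 2131 and 1543, 1264 and 2046 CPM, and the gliogenic factor Sox9 at 116, 111 and 132 and 148, 149.7 and 143 CPM. None of 20 tested astrocyte genes passed, and the list's median log2 ratio was 0.214, 0.236 and 0.225 in replicates 1 to 3, with replicate 3 between the others. Single members agreed less. Of 10 above all controls in replicates 1 and 2, 5 were so in replicate 3, and of 5 below all controls none were. For Gfap and Sox9 all treated libraries lay above all controls (edgeR adjusted p = 0.281 and 0.201). Some members differed between the treated libraries: Vim, vimentin, was at 4472, 4559.7 and 3363 CPM in control and 6828, 7036 and 3915 CPM at 1.5 h, and Glul, glutamine synthetase, at 2799.5, 2665 and 4337 and 1567, 1517 and 4848 CPM. Emp1 was the only one of 26 reactive astrocyte genes to pass, moving from 172, 181 and 129 to 467, 461 and 348 CPM (1.41 ± 0.18, edgeR adjusted p = 0.00139).

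The title of the series names a conversion of astrocytes to dopaminergic neurons, and genes of neurons were therefore read at 1.5 h. Of 17 tested neuronal structure genes none passed, and 14 lay above all controls in replicates 1 and 2 (35.6% of all genes did) but none of these in replicate 3. The microglia and fibroblast sums differed in the same libraries, and their part in the neuronal list was not tested. Tubb3, neuronal tubulin, was at 54, 53.2 and 40.5 CPM in control and 126, 118 and 46.2 CPM at 1.5 h, Map2 at 109.6, 98.3 and 99.3 and 130.3, 125 and 104 CPM, and Dcx, doublecortin, at 14.7, 14.9 and 7.48 and 47.4, 49.6 and 6.04 CPM. Of 10 tested dopaminergic genes En2, a midbrain homeobox factor, passed, at 3.60, 4.43 and 3.26 CPM in control and 9.86, 12.6 and 7.25 CPM at 1.5 h (1.40 ± 0.30, edgeR adjusted p = 0.0305). En2 was not called with the replicate block (adjusted p = 0.0669) or without each library other than replicate 3 (up to 0.139).

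None of 19 tested proneural factors and their regulators passed. Ptbp1, the splicing repressor of neuronal exons, was at 610.0, 635 and 568 and 606, 619 and 577 CPM, and Rest, the repressor of neuronal genes, at 47.1, 45.3 and 43.5 and 48.4, 50.3 and 43.1 CPM. Sox2, of neural progenitors, was at 174, 171 and 175 CPM in control and 170.0, 174 and 111 CPM at 1.5 h, with replicate 3 well below the other libraries.

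Genes of cell division did not pass at 1.5 h, and a pair of growth regulators did. None of 28 mitosis and 27 DNA replication genes passed. Mki67, a marker of cycling cells, was at 346, 375 and 301 CPM in control and 231, 274 and 239.6 CPM at 1.5 h, lower in all 3 libraries (edgeR adjusted p = 0.847). Of the 28 mitosis genes 18 lay below all controls in replicate 3 (33.5% of all genes did), and 4 did so in both replicates 1 and 2. None of 20 genes of PI3K, AKT and mTOR signalling and none of 18 of ribosome biogenesis passed. Of 17 tested genes of growth control, polyamines and the G1 phase, Myc and Mnt, a repressor that opposes Myc, were higher (11.8%, against 1.95% of all genes). Mnt had a log2 change of 0.59 ± 0.14 (edgeR adjusted p = 0.043) and was not called with the replicate block (adjusted p = 0.0782) or without each library other than replicate 3 (up to 0.162).

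The leading genes differed in what followed, by edgeR contrasts of 3 h or 6 h against 1.5 h, in which the controls enter the fit but not the difference. Fos fell back from 121 ± 42.5 CPM (SD, n = 3) at 1.5 h to 23.6 ± 4.13 at 3 h (-2.36 ± 0.27, adjusted p = 0.00173), and Hes1 from 95.7 ± 5.19 to 17.2 ± 7.75 CPM (-2.48 ± 0.30, adjusted p = 0.00173). Egr1 fell from 1079.6 ± 57.7 to 294 ± 143 CPM (-1.88 ± 0.35, adjusted p = 0.00884), and Arc from 106 ± 11 to 41.7 ± 17.1 at 3 h and 6.13 ± 1.07 at 6 h (-4.11 ± 0.33 at 6 h against 1.5 h, adjusted p = 5.04e-05).

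Others did not fall back or rose further. Lif was at 951 ± 255 CPM at 3 h and 749 ± 103 at 6 h and did not pass against 1.5 h at either time (adjusted p = 0.8 and 0.132). Hbegf rose further to 1094 ± 43.8 CPM at 3 h (0.77 ± 0.14, adjusted p = 0.00794), and Kcnk3 from 14.3 ± 5.05 to 59 ± 2.69 CPM (2.04 ± 0.33, adjusted p = 0.00506). Dusp5 rose to 437 ± 198 CPM at 3 h (1.46 ± 0.33, adjusted p = 0.0162). Among lower genes Pdk4 fell further by 6 h, to 1.14 ± 0.264 CPM (-1.12 ± 0.25, adjusted p = 0.00679), and Tirap rose again to 17.6 ± 3.64 CPM (1.46 ± 0.27, adjusted p = 0.00244).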

How the data were processed

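Gene-level estimated counts and FPKM of 12 libraries were deposited by the authors in 1 table. Per the labels, RNA came from TRIzol extraction and was made into libraries with a NEBNext Ultra RNA kit. The submitters' processing notes name StringTie 2.2.1. Which aligner, build and annotation were used is not given in the sources used for this text. Counts were rounded (9.49% of values were not whole) and the FPKM values of the authors were used only in alternatives. Genes were filtered by filterByExpr, scaled by TMM and fitted over all 12 libraries by group with edgeR 4.0.16 (quasi-likelihood, robust), with p-values adjusted over the 9491 genes tested. The design had assumed raw counts, and estimated counts took the same test. Ratios of single libraries use CPM + 0.5. The fit was tested on simulated counts.

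The genes and lists were chosen with earlier results of these data known. Genes named are the 20 risen and the 20 fallen farthest, the called list members at 1 CPM or more and up to 4 uncalled members per list, the 37 genes always shown, and the genes with the widest gap between replicate 3 and the others, unless the text says otherwise. Some of these genes are not reported here. Control and 1.5 h libraries of the same number in the labels deviated together from their group means (r = 0.231, 0.395 and 0.478 across genes), and so did control 2 with replicate 1 of 1.5 h (0.325) and control 1 with replicate 2 (0.232), so the numbers 1 and 2 were not told apart. All 3 being above 0.1, the number was taken to pair them, and a fit with it as a block was made. The alternatives were other scalings, filters, a fit of the 2 groups alone, DESeq2 1.42.0, limma 3.58.1 on FPKM, and leaving out each library. Promoters came from RefSeq (GRCr8).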

Additional observations from a re-analysis of the deposited data

How the results depend on the processing

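The count of 315 changed genes was within 1.5 times of its value under every scaling and filter tried, in the fit of the 2 groups alone, without the robust step and with limma on FPKM (240 to 385 genes). In these fits 160 to 205 genes were higher and 68 to 225 lower, and they were not all the same genes. The fit of the 2 groups alone shared 190 of the 315. The count was 201 with the replicate block, 133 with the block in the 2 groups alone and 147 with a 2-fold minimum. It was 801 with DESeq2, whose calls included all 315. Without control 1, 2 or 3 or replicate 1 or 2 of 1.5 h it was 115 to 129, and without replicate 3 of 1.5 h it was 2871, so that leaving out each library gave 115 to 2871. Distinct genes called among the members of all gene lists, 118 in the main fit, were 199 with DESeq2 and ranged from 65 to 398 when each library was left out. Among genes at least 2-fold from control in both replicates 1 and 2, 28.3% lay on the same side in replicate 3, and 32.5% with library size scaling. The block in the 2 groups alone and the TMM reference of control 1 were chosen after seeing the data. Over all 12 libraries, the block ended the calls stated in the text and changed no other call among the genes named. In the 2 groups alone it ended 43 of 120 calls among the genes named, Arl4d, Axin1, Dusp4, Klf7, Klhl18, Pmaip1, Pwwp2a, Rnd1 and Spry2 among them, and left 123 higher and 10 lower genes called.

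Of the genes named as called, Cables1, Hspa1a, Irs3, Kbtbd8, AABR07053741.1, RGD1561149, Chac1, Dusp2, En2, Ets1, Hspb1, Itga5, Klf6, Mapk8, Mfsd12 and Nrarp lost the call under at least 1 other scaling. Fosl1, just outside the threshold, passed in 10 of 20 alternatives, DESeq2 and library size scaling among them. The directions of 4 genes without a call were not fixed. The log2 change of Aqp4 was -0.0065 and -0.0061 with library size or depth from FPKM, and -0.137 to 0.372 with each library left out, below 0 without control 1, control 2 or replicate 3 of 1.5 h. That of Id3 was -0.061 and -0.059 with those scalings, -0.0607 and -0.0609 with limma, and -0.034 to 0.085 with each library left out, below 0 without control 3 or replicate 1 or 2 of 1.5 h. That of Ptbp1 was 0.029 with DESeq2's size factors, 0.016 with the upper quartile, 0.0034 with another TMM reference, 0.011 without a filter, 0.015 and 0.014 in the 2 groups alone with and without the block, 0.0292 with DESeq2, and -0.051 to 0.028 with each library left out, above 0 without control 2 or replicate 3 of 1.5 h. That of Rest was -0.013 and -0.011 with those scalings and -0.012 and -0.014 with limma. The cause was not tested. Precision is limited by 3 libraries per group and, for genes such as Egr4 and Dll4, by few control counts.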
